A study of Rattus norvegicus with 6 samples.

Results

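The lysine acetyltransferases reported here are the genes Ep300, Crebbp, Kat2a, Kat2b, Kat5, Kat6a, Kat6b, Kat7, Kat8 and Hat1, found as the rows of the gene count table whose symbol equals one of these names. All 10 had a row among the 20609 genes of the table, and all 10 were among the 12624 genes with enough counts for a test. The RNA-seq libraries are labelled as PC12, a rat line from a tumor of the adrenal medulla. In the Ctrl group 3 libraries came from cells given a control plasmid, and in the PCBP1-OE group 3 libraries came from cells given a PCBP-1 plasmid, which the methods describe as tagged with EGFP. PCBP-1 binds RNA, and the comparison asks which transcripts differ once it is overexpressed. The study's text speaks of stable overexpression and its methods of transfection, and the methods name no time for the RNA-seq harvest. Ctrl 1, 2 and 3 held 20268725, 21256970 and 22315623 counts on genes, and PCBP1-OE 1, 2 and 3 held 21367196, 19822383 and 19730209. The labels do not say that the libraries of a group came from separate cultures, though the study's text calls them biological replicates. Each p-value thus measures only the spread between these samples, which may be technical. Pcbp1 itself was not analysed here.

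Lysine acetyltransferases move an acetyl group from acetyl-CoA to lysines of histones and other proteins, which loosens chromatin and makes marks that bromodomain proteins read. p300 and CBP are large coactivators recruited by CREB and many other factors, the GNAT enzymes include the catalytic subunits of SAGA, and the MYST enzymes work in complexes such as NuA4, MOZ/MORF, HBO1, MSL and NSL. In neurons, CBP and p300 are known for transcription that follows activity, and deacetylases of the HDAC and sirtuin families undo the mark.

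The cell line label was checked against marker genes, on the scale of CPM, a gene's count over its library's total after TMM scaling. Of 13 chromaffin markers 11 were in the table. They summed to 10.9, 11.6 and 10.7 CPM in Ctrl and to 10.8, 12.2 and 12.4 CPM in PCBP1-OE. Most of this was Th, the enzyme that starts catecholamine synthesis, with a mean of 7.84 CPM. The other defining markers of the label were at or near 0, with 0 to 3 counts a library for Chga and 0 to 5 for Dbh. By contrast, 6 Schwann and glial markers summed to 796, 852 and 828 CPM in Ctrl and to 742, 768 and 749 CPM in PCBP1-OE, so the groups did not overlap. The most abundant of them was Sox10, with a mean of 384 CPM, and 1 of 5 tested, Pmp22, was called lower. The fibroblast markers, nearly all of their sum from Pdgfra, summed to 228.7, 230.4 and 225.0 CPM in Ctrl and 210.7, 200.1 and 212.2 CPM in PCBP1-OE, with no overlap, but 0 of 3 tested was called (1 at an unadjusted p under 0.05, Pdgfra). These 6 libraries are therefore called by their labels, with no other cell type name. In bulk RNA, fewer cells of a type and less RNA per cell cannot be told apart. The part of these shifts, and of the number of genes detected (16950, 17085 and 17085 in Ctrl; 17390, 17348 and 17153 in PCBP1-OE), in the changes given next was not tested.

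Of the 10 acetyltransferase genes, Ep300 and Kat6a were higher in PCBP1-OE at a false discovery rate (FDR) of 0.05, and none was lower. Kat6a was higher in all 3 PCBP1-OE libraries than in any Ctrl library, while Ep300 was more than doubled on average but uneven within both groups. A share of 20% of the acetyltransferase genes was thus called, against 9.45% of all genes tested (4.45% higher and 5.0% lower). A move of 1 gene shifts the members' share by 10 percentage points, so 2 calls do not set it apart from the background. Counted with a change of at least 2-fold as well, 1 of the 10 remained, Ep300, against 0.190% of all genes. The study had already reported Ep300 as higher from these same libraries, and the list was made with this known. The call of Ep300 is thus no independent support for either share. The groups did not overlap in 2 of the 10, Kat6a and Hat1, and they did not in 30.6% of all genes tested. The median log2 fold change of the 10 was 0.038, with 5 above and 5 below 0, and that of all genes tested was 0.0029. The median of the 10 ran from -0.017 without Ctrl 2 to 0.069 without PCBP1-OE 1 over the fits with a library dropped, and it was below 0 only without Ctrl 2. With upper-quartile scaling the split of all calls moved from 562 higher and 631 lower to 655 and 427, and the same pair of acetyltransferase genes was called.

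**Figure D1:**
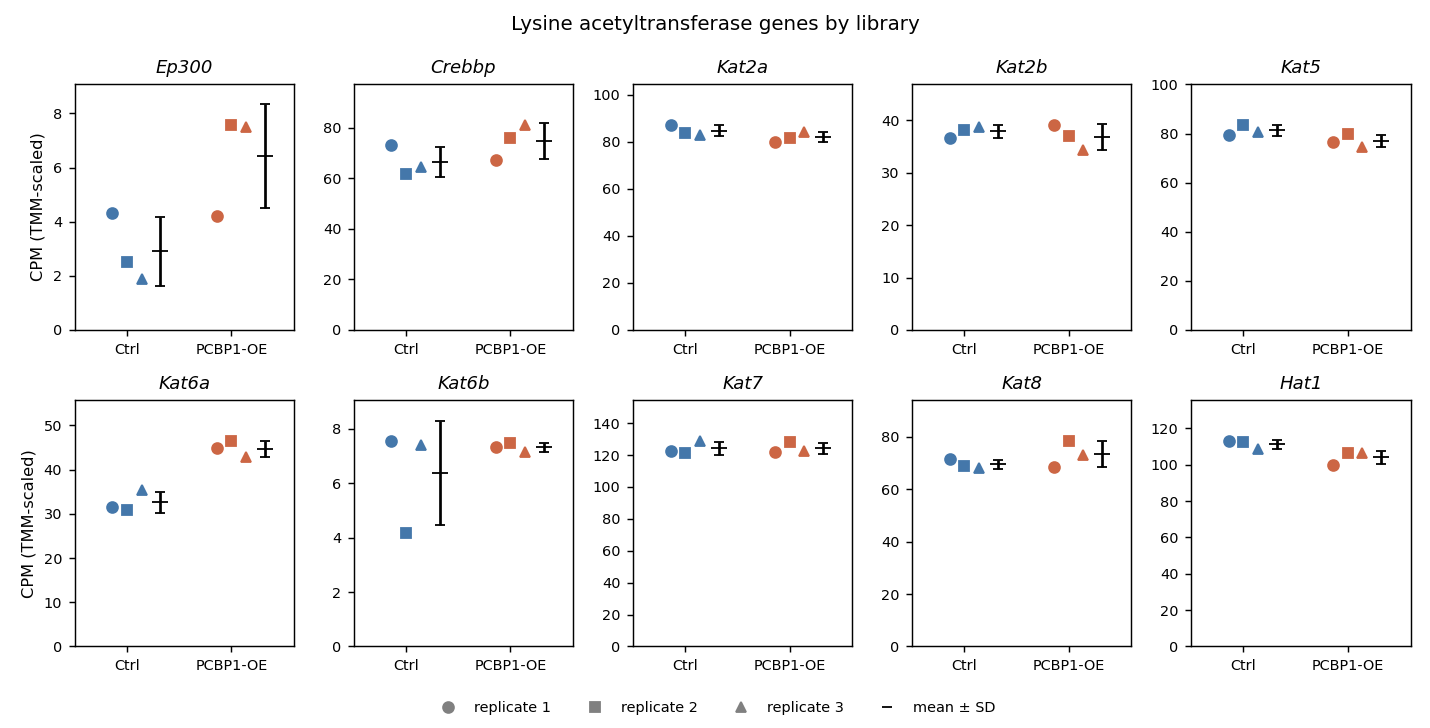
Level of each acetyltransferase gene in each library, in TMM-scaled CPM on an axis from 0, for Ctrl (blue) and PCBP1-OE (orange), with the mean ± SD of 3 libraries beside the points. Kat6a is higher in all PCBP1-OE libraries, while in Ep300 PCBP1-OE 1 lies at 4.22 CPM beside Ctrl 1 at 4.33 CPM.

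Ep300 (ENSRNOG00000000190, chromosome 7) encodes p300, the coactivator that acetylates histones at enhancers and promoters. Its level was 4.33, 2.49 and 1.87 CPM in Ctrl 1, 2 and 3, and 4.22, 7.58 and 7.50 CPM in PCBP1-OE 1, 2 and 3. PCBP1-OE 2 and 3 were above every Ctrl library, but PCBP1-OE 1 was no higher than Ctrl 1, and the groups overlapped. The counts behind these levels were 85, 52 and 42 in Ctrl and 93, 153 and 147 in PCBP1-OE. An exact Poisson 95% interval, which covers counting error only, ran from 3.46 to 5.36 CPM in Ctrl 1 and from 1.35 to 2.53 CPM in Ctrl 3. In PCBP1-OE it ran from 3.41 to 5.17 CPM in library 1 and from 6.43 to 8.88 CPM in library 2. Replicates differed by more than counting error across all genes as well, at a chi-square per gene of 5.85 to 17.2 over the pairs. This average over all genes cannot show whether the spread of Ep300 is unusual for its level, which was not tested. The mean was 2.90 ± 1.28 CPM in Ctrl and 6.44 ± 1.92 CPM in PCBP1-OE (SD, n = 3 each), with coefficients of variation of 44.2% and 29.8%. The log2 fold change was 1.16 (SE 0.28, 95% interval 0.54 to 1.77), which is 2.23-fold, with an adjusted p of 0.0281 by edgeR's quasi-likelihood test and the Benjamini-Hochberg method over all genes tested. Without Ctrl 2, PCBP1-OE 2 or PCBP1-OE 3 the log2 fold change was 1.07, 1.02 and 1.04, and the adjusted p of the same edgeR test was 0.149, 0.114 and 0.0829. In these 3 fits the calls over all genes went from 1193 to 48, 136 and 697. Over 14 alternatives the change kept its sign, the adjusted p ran from 7.29e-08 to 0.149, and 10 of them were at or under 0.05.

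By RT-qPCR the study reported a significant increase in Ep300 mRNA with PCBP-1 overexpression. The study's RT-qPCR primers for Ep300 and, as its paralog is compared with it here, the 250 bases before the start of both genes are shown, the latter from RefSeq on GRCr8. The Ep300 window is chr7:114987607-114987856 and the Crebbp window chr10:11842090-11842339, both on the plus strand. Capitals mark matches to a GC box, and the primers have none.
Ep300 forward primer: ttgacctggaacatgactta
Ep300 reverse primer: agaccttagcaattctgaca
Ep300 promoter window: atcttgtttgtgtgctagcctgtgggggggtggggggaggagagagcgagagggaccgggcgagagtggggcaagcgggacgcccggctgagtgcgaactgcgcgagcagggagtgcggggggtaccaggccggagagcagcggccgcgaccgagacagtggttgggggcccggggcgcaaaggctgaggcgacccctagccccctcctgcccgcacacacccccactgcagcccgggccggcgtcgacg
Crebbp promoter window: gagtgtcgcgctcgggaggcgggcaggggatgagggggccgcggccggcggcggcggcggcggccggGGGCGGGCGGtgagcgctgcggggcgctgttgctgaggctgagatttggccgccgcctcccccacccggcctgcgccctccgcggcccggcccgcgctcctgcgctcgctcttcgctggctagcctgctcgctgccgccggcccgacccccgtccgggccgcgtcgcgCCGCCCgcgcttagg
The windows were searched on both strands for the CRE (TGACGTCA), the GC box (GGGCGG), the CCAAT box (CCAAT), the E box (CACGTG) and the GAS, a STAT motif (TTCNNNGAA). The Ep300 window had no match to these letters, and the Crebbp window had 3 GC boxes, of which 2 overlap. Among 33469 RefSeq windows of this length, 1.59% held the CRE, 30.5% the GC box, 34% the CCAAT box, 5.59% the E box and 7.67% the GAS. Both windows were rich in G and C, with 72.8% and 24 CpG in Ep300 and 82% and 43 CpG in Crebbp, where the median window had 51.2% and 5 CpG. Of the 10 genes 8 had a window, and Kat2a and Kat6a had none.

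Crebbp (ENSRNOG00000005330, chromosome 10) encodes CBP, the paralog of p300. Its level was 73.1, 61.7 and 64.5 CPM in Ctrl 1, 2 and 3, and 67.3, 75.9 and 81.2 CPM in PCBP1-OE 1, 2 and 3. As with Ep300, PCBP1-OE 2 and 3 were the highest libraries and PCBP1-OE 1 was under Ctrl 1. The log2 fold change was 0.17 (SE 0.074, 95% interval 0.011 to 0.331), and it did not pass in edgeR's quasi-likelihood test (Benjamini-Hochberg adjusted p = 0.150). With no filter on low counts the adjusted p by the same edgeR test was 0.0339, and over 14 alternatives it ran up to 0.404.

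A ratio of paralogs within a library needs no scaling between libraries. Ep300 counts were 5.93%, 4.04% and 2.90% of Crebbp counts in Ctrl 1, 2 and 3, and 6.28%, 9.99% and 9.25% in PCBP1-OE 1, 2 and 3. All PCBP1-OE ratios were above all Ctrl ratios, by little for PCBP1-OE 1 over Ctrl 1. The log2 ratio averaged -4.60 ± 0.52 in Ctrl and -3.58 ± 0.36 in PCBP1-OE (SD over 3 libraries), and the means were 1.02 apart. A two-sided exact permutation test gave p = 0.1, and 0.3 after adjustment over 3 paralog pairs by the Benjamini-Hochberg method. With 3 libraries a group this test cannot go under 0.1, so it cannot pass 0.05. The other pairs overlapped, with a difference in log2 ratio of 0.0047 for Kat2b to Kat2a (exact permutation test, p = 1) and of -0.20 for Kat6b to Kat6a (exact permutation test, p = 0.4, adjusted 0.6). With single libraries dropped these differences ran from -0.058 to 0.075, with either sign, and from -0.45 to -0.034.

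**Figure D2:**
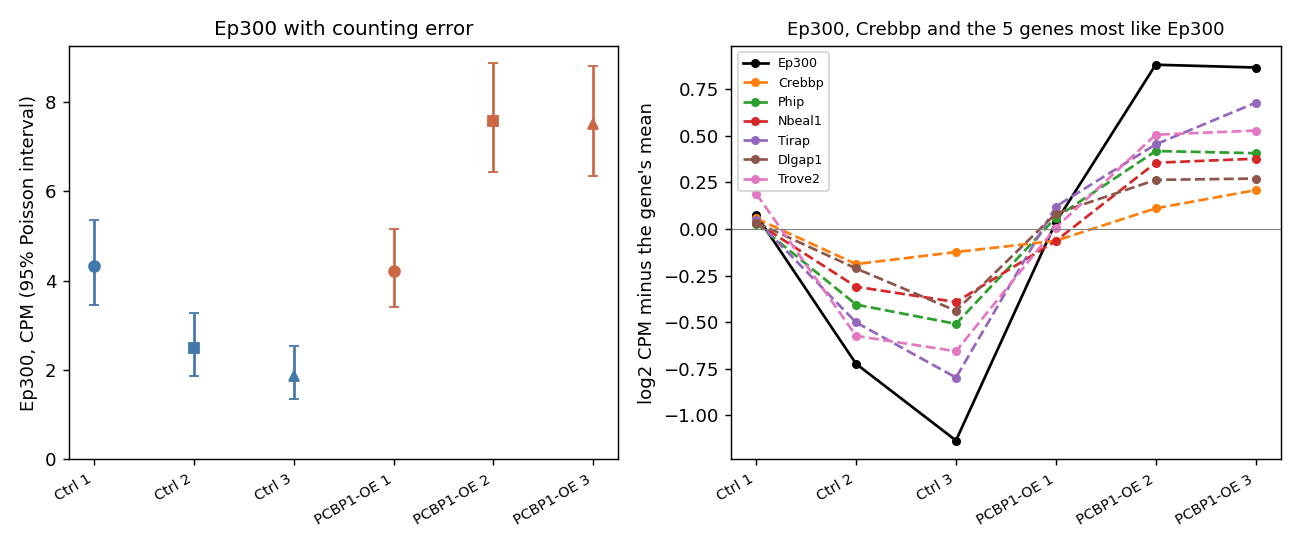
Left, Ep300 in each library in TMM-scaled CPM, with bars for the exact Poisson 95% interval of its count. Right, log2 CPM less the gene's own mean over the 6 libraries for Ep300, Crebbp and the 5 genes most like Ep300, which have the lowest points in Ctrl 2 and 3 and the highest in PCBP1-OE 2 and 3.

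The tested genes whose pattern over the 6 libraries was most like that of Ep300, by Pearson's r on log2 CPM, were Phip (r = 0.996), Nbeal1 (0.990), Tirap (0.987), Dlgap1 (0.986) and Trove2 (0.985). They are the top of 12624 genes over 6 points that share their libraries, so r is a description and has no p. Phip (ENSRNOG00000008652, chromosome 8), a bromodomain protein, had 7.19, 5.32 and 4.95 CPM in Ctrl and 7.35, 9.42 and 9.34 CPM in PCBP1-OE. Its groups did not overlap, though PCBP1-OE 1 was barely above Ctrl 1. The same held for the groups in Tirap and Dlgap1, and in 30.6% of all genes tested. Of the 5 genes Phip alone passed an FDR of 0.05 in edgeR's quasi-likelihood test (Benjamini-Hochberg adjusted p = 0.0428), and the others were between 0.0737 and 0.191. Phip kept the call without Ctrl 1, while without Ctrl 2 or 3 its adjusted p in the same edgeR test was 0.179 and 0.0516, and without PCBP1-OE 1, 2 or 3 it was 0.0775, 0.151 and 0.114. Trove2 passed with DESeq2 (adjusted p = 0.0401), edgeR's exact test (0.0456), no filter (0.00328) and without Ctrl 1 (0.0418), and Nbeal1 with no filter (0.0227). Tirap rests on 7 to 17 counts a library. Among the acetyltransferase genes r to Ep300 was 0.904 for Crebbp, 0.821 for Kat8, 0.681 for Kat6a and 0.414 for Kat6b. It was -0.060 for Kat2a, -0.070 for Kat7, -0.34 for Hat1, -0.66 for Kat5 and -0.71 for Kat2b.

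Kat6a (ENSRNOG00000025174, chromosome 16) encodes MOZ, a MYST enzyme that acetylates histone H3 and is known from blood stem cells and leukemia. Its level was 31.6, 31.0 and 35.4 CPM in Ctrl 1, 2 and 3, and 44.9, 46.4 and 42.9 CPM in PCBP1-OE 1, 2 and 3. Every PCBP1-OE library was above every Ctrl library, and the gap between the groups was wider than the range within either. The counts were 620, 646 and 794 in Ctrl and 989, 937 and 840 in PCBP1-OE. The mean rose from 32.7 ± 2.40 to 44.7 ± 1.78 CPM (SD, n = 3 each). The log2 fold change was 0.45 (SE 0.067, 95% interval 0.31 to 0.60), or 1.37-fold, with a Benjamini-Hochberg adjusted p of 0.00445 by edgeR's quasi-likelihood test. By p it ranked 37 among the 12624 genes tested. Of 14 alternatives 13 kept the call, each of the 6 with a library left out included, and the log2 fold change stayed between 0.42 and 0.52.

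Kat6b (ENSRNOG00000012850, chromosome 15) encodes MORF, the paralog of MOZ in the same kind of complex. Its level was 7.55, 4.17 and 7.40 CPM in Ctrl 1, 2 and 3, and 7.35, 7.48 and 7.15 CPM in PCBP1-OE 1, 2 and 3. Ctrl 2 alone was low, and the other 5 libraries lay together. The log2 fold change was 0.20 (SE 0.19, 95% interval -0.21 to 0.61), which did not pass in edgeR's quasi-likelihood test (Benjamini-Hochberg adjusted p = 0.524), and without Ctrl 2 it was -0.023.

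Kat5 (ENSRNOG00000061012, chromosome 1) encodes TIP60, the enzyme of the NuA4 complex, which acts on histone H4 and in DNA repair. Its level was 79.4, 83.6 and 80.8 CPM in Ctrl and 76.4, 79.7 and 74.7 CPM in PCBP1-OE. PCBP1-OE 1 and 3 were under every Ctrl library, but PCBP1-OE 2 was above Ctrl 1. Kat7 (ENSRNOG00000022664, chromosome 10) encodes HBO1, which acetylates histones at replication origins and genes. Its level was 122.6, 121.2 and 128.7 CPM in Ctrl and 121.6, 128.4 and 122.3 CPM in PCBP1-OE. The groups covered nearly the same range. Kat8 (ENSRNOG00000019585, chromosome 1) encodes MOF, the enzyme of the MSL and NSL complexes, which acetylates lysine 16 of histone H4. Its level was 71.4, 69.0 and 68.2 CPM in Ctrl and 68.5, 78.4 and 73.3 CPM in PCBP1-OE. PCBP1-OE 2 and 3 were the highest libraries, and PCBP1-OE 1 lay among the Ctrl libraries. None of these 3 MYST genes passed an FDR of 0.05 in edgeR's quasi-likelihood test, and their Benjamini-Hochberg adjusted p was 0.293, 0.991 and 0.385. The 95% intervals of their log2 fold changes were -0.180 to 0.022 for Kat5, -0.098 to 0.096 for Kat7 and -0.042 to 0.195 for Kat8. The sign for Kat7, -0.00082, turned under both other scalings.

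Kat2a (ENSRNOG00000018364, chromosome 10) encodes GCN5, and Kat2b (ENSRNOG00000011871, chromosome 9) encodes PCAF, the GNAT enzymes that alternate in SAGA and ATAC. Kat2a was at 87.4, 84.0 and 83.0 CPM in Ctrl and 80.1, 81.6 and 84.3 CPM in PCBP1-OE. Kat2b was at 36.6, 38.2 and 38.8 CPM in Ctrl and 39.2, 37.0 and 34.3 CPM in PCBP1-OE. Both overlapped between the groups. Hat1 (ENSRNOG00000001524, chromosome 3) encodes the enzyme that acetylates new histone H4 before it is put on DNA. It was at 113.0, 112.3 and 108.6 CPM in Ctrl and 99.9, 106.2 and 106.3 CPM in PCBP1-OE. Every PCBP1-OE library was under every Ctrl library, by a narrow gap between Ctrl 3 and PCBP1-OE 3. The log2 fold changes were -0.048 (SE 0.045) for Kat2a, -0.041 (SE 0.066) for Kat2b and -0.096 (SE 0.045) for Hat1. None passed in edgeR's quasi-likelihood test (Benjamini-Hochberg adjusted p = 0.529, 0.728 and 0.179), and the 95% intervals ran from -0.146 to 0.050, from -0.182 to 0.101 and from -0.192 to 0.0007. The sign for Kat2b turned without PCBP1-OE 3, to 0.015.

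**Figure D3:**
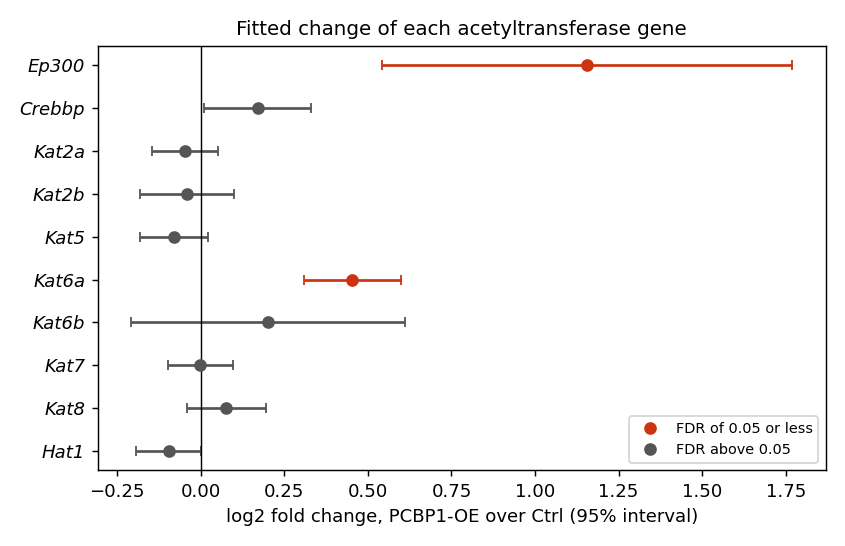
Log2 fold change of PCBP1-OE over Ctrl for each acetyltransferase gene, with bars for the 95% interval of the fitted change. Ep300 (1.16) and Kat6a (0.45), in red, are at an FDR of 0.05 or less, and Ep300 has the widest bar.

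The genes that work with these enzymes were read from 8 further lists, with 122 symbols, of which 117 matched 119 rows and 110 rows could be tested. In edgeR's quasi-likelihood test 13 of the 110 were higher and 5 lower at an FDR of 0.05. Together this is 16.4%, where all genes gave 9.45%. The calls were 4, 0 and 26 without Ctrl 1, 2 and 3, and 0, 0 and 13 without PCBP1-OE 1, 2 and 3. Of all genes 1.92%, 0.375%, 22.3%, 1.32%, 1.06% and 5.42% were called in these fits, in that order. The median log2 fold change of the 110 was 0.034, and no gene among them was called at 2-fold or more. The groups did not overlap in 35.5% of them, near the 30.6% of all genes.

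Among the partners of the MYST enzymes the called genes were all higher outside the NuA4 list and went both ways within it. Meaf6, which NuA4 shares with MOZ/MORF and HBO1, was counted in the NuA4 list only. In the list of MOZ/MORF, HBO1, MSL and NSL partners 5 of 18 tested genes were higher and none lower, where 4.45% of all genes tested were higher and 5.0% lower, with a median log2 fold change of 0.089. Kansl1, the scaffold of the NSL complex around MOF, had a log2 fold change of 0.54 (SE 0.14), though its groups overlapped. Msl2, a ubiquitin ligase in the MSL complex, had 0.45 (SE 0.11). The adjusted p by edgeR's quasi-likelihood test with the Benjamini-Hochberg method was 0.0338 for Kansl1 and 0.0268 for Msl2. The other called genes, named after their values were seen, were Brd1 (log2 fold change 0.23), Jade1 (0.36) and Jade2 (0.37), which are scaffolds of MOZ/MORF or HBO1 complexes. Of 15 tested NuA4 subunits 1 was higher and 2 were lower (20% called, against 9.45% of all genes), with a median of 0.028. Epc2, a scaffold of the complex, had a log2 fold change of 0.24 (SE 0.061), Meaf6, a small subunit that NuA4 shares with MOZ/MORF and HBO1, had -0.23 (SE 0.066), and the ATPase Ruvbl2 had -0.19 (SE 0.045). Their adjusted p by the same edgeR test was 0.0301, 0.0483 and 0.0243. Mbtd1, another NuA4 subunit, named after its values were seen, had a log2 fold change of 1.04 (SE 0.31). It was not called in the same edgeR test (adjusted p = 0.0518). This change rests on low counts, 26, 15 and 13 in Ctrl and 39, 39 and 32 in PCBP1-OE. Of 21 tested SAGA and ATAC subunits 1 was called (4.76%), Taf10, which SAGA shares with the general factor TFIID, with a log2 fold change of -0.30 (SE 0.078, adjusted p = 0.0354 in the same edgeR test). The median of that list was 0.038. Without Ctrl 3 the same edgeR test called 3 SAGA and ATAC subunits higher and 1 lower, with no filter 4 and 1, and edgeR's exact test called 2 and 1. Of the NuA4 subunits 3 were higher and 2 lower without Ctrl 3, with limma-voom or with edgeR's exact test, and 4 and 2 with no filter. Without Ctrl 1, Ctrl 2, PCBP1-OE 1, PCBP1-OE 2 and PCBP1-OE 3 the calls in the NuA4 list were 1, 0, 0, 0 and 2, with 7 or 8 genes at an unadjusted p under 0.05, and in the SAGA and ATAC list 0, 0, 0, 0 and 2, with 3 to 5. The share of all genes called in the same fits was 22.3% without Ctrl 3, 10.1% with no filter, 9.48% with limma-voom, 12.7% with the exact test and 1.92%, 0.375%, 1.32%, 1.06% and 5.42% without the other libraries in the order above. In the same edgeR test the calls in the MOZ/MORF, HBO1, MSL and NSL list numbered 0, 0 and 5 without Ctrl 1, 2 and 3 and 0, 0 and 4 without PCBP1-OE 1, 2 and 3, with 7 to 9 genes at an unadjusted p under 0.05 in the fits with 0 calls. Of all genes 22.3% were called without Ctrl 3, 5.42% without PCBP1-OE 3 and 0.375% to 1.92% in the fits with 0 calls. All genes at an unadjusted p under 0.05 numbered 2717 of 12842 without Ctrl 1 and 2461 of 12815 without Ctrl 2. Without PCBP1-OE 1, 2 and 3 they numbered 2576 of 12785, 2733 of 12828 and 3302 of 12851. The same background applies to the NuA4 list and to the SAGA and ATAC list. Kansl1, Msl2, Epc2, Meaf6, Ruvbl2 and Taf10 each lost the call without Ctrl 1, Ctrl 2, PCBP1-OE 1 or PCBP1-OE 2, Ruvbl2 also without PCBP1-OE 3 and Meaf6 also with RLE or upper-quartile scaling, and the highest Benjamini-Hochberg adjusted p of each over the 14 alternatives, DESeq2 and limma-voom included, was 0.13 to 0.19.

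The list of readers of acetylated lysine had the highest median of the 8 lists, 0.22 on the log2 scale. Bromodomain and YEATS genes placed in other lists were not counted in it. Of those in the partner lists, Brd1 (log2 fold change 0.23) was called. Brpf3 (0.18), Brpf1 (0.045), Brd8 (0.037), Yeats2 (0.0088) and Yeats4 (-0.083) were not. Of the 16 tested genes of the reader list 6 were higher and none lower, a share of 37.5%. Among all genes 4.45% were higher and 9.45% were called either way. The groups did not overlap in 9 of them (56.2%), 7 higher and 2 lower, against 30.6% of all genes. Phip led them with a log2 fold change of 0.58 (SE 0.16). Atad2, a chromatin ATPase with a bromodomain, had 0.45 (SE 0.099, adjusted p = 0.0186 by edgeR's quasi-likelihood test with the Benjamini-Hochberg method). The other called readers, named after their values were seen, were Brwd1 (0.41) and the subunits of ISWI chromatin remodelers Baz1a (0.44), Bptf (0.29) and Baz1b (0.18). Brd2, a BET protein gene also named after its values were seen, was at 0.49 and was not called. With 1 library left out the same edgeR test called 3, 0 and 6 readers without Ctrl 1, 2 and 3, and 0, 0 and 4 without PCBP1-OE 1, 2 and 3, where the share of all genes called was 1.92%, 0.375% and 22.3%, and 1.32%, 1.06% and 5.42%. Atad2 lost its call without Ctrl 1, Ctrl 2, PCBP1-OE 1 or PCBP1-OE 2, and Phip kept its call only without Ctrl 1 among these fits. In the fits with 0 calls, 7 to 9 readers had an unadjusted p under 0.05. Of all genes, 2461 of 12815 did without Ctrl 2, and 2576 of 12785 and 2733 of 12828 without PCBP1-OE 1 and 2.

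Of the enzymes that remove the mark, 15 HDAC and sirtuin genes were tested, and none was called higher and 1 lower (6.67%, against 9.45% of all genes). Their median log2 fold change was -0.062, with 12 of the 15 below 0, where 6254 of all 12624 genes tested were below 0. Whether this list differs from all genes was not tested. The called gene was Sirt2, a deacetylase of the cytosol that uses NAD, with a log2 fold change of -0.19 (SE 0.043, adjusted p = 0.0201 by edgeR's quasi-likelihood test with the Benjamini-Hochberg method). Hdac4 and Sirt1, named after their values were seen, had log2 fold changes of 0.41 (SE 0.13) and 0.35 (SE 0.16) and did not pass in the same edgeR test (adjusted p = 0.0656 and 0.180), though the groups did not overlap in Hdac4. With edgeR's exact test, with no filter or without Ctrl 3, 1 gene of this list was called higher. Of the 4 tested genes of acetyl-CoA supply, Slc25a1, the carrier that brings citrate out of mitochondria, was lower, with a log2 fold change of -0.26 (SE 0.054, adjusted p = 0.0164 in the same edgeR test), and the list median was -0.044. Among 12 other acetyltransferases and coactivators, Esco1, which acetylates cohesin, was higher, with 0.26 (SE 0.069, adjusted p = 0.0362 in the same edgeR test), and the list median was 0.058. None of the 9 tested CREB, CRTC and CITED genes, whose proteins recruit or compete for p300 and CBP, was called by edgeR's quasi-likelihood test, DESeq2, limma-voom or edgeR's exact test, while 3 had an unadjusted p under 0.05 in the first. Of all 12624 genes tested, 3588 had an unadjusted p under 0.05 in edgeR's quasi-likelihood test. The median log2 fold change of the 9 genes was 0.035. Sirt2 and Esco1 kept their calls with 1 library left out only without Ctrl 3, and Slc25a1 only without Ctrl 3 or PCBP1-OE 3. Their highest adjusted p over 14 alternatives was 0.164, 0.145 and 0.107 in that order.

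**Figure D4:**
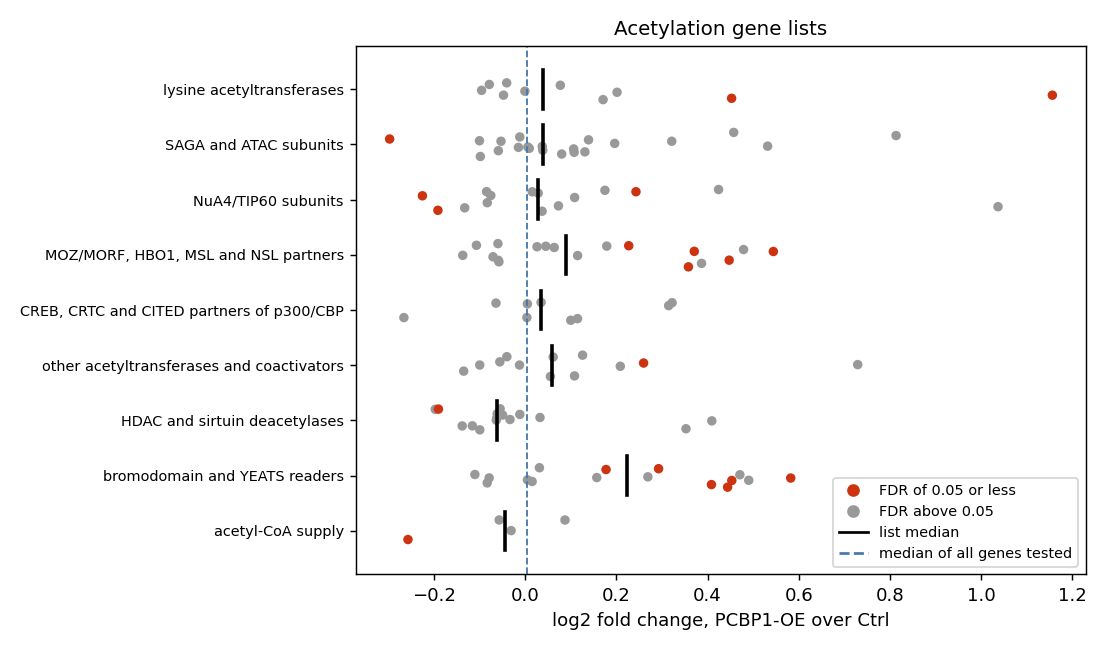
Log2 fold change of PCBP1-OE over Ctrl for each tested gene of the acetyltransferase list and the 8 further lists, with a black bar at each list's median and a dashed line at the median of all genes tested. The reader list has its median at 0.22, and the deacetylase list at -0.062.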

How the data were processed

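The deposited values are the authors' raw gene counts, without normalization, for 6 poly-A RNA libraries. Per the methods, FASTX-Toolkit trimmed the reads, TopHat2 placed them on Rnor_6.0 with up to 4 mismatches, and uniquely mapped reads were counted. The submitters' processing notes name GRCh38, bcl2fastq, TopHat2 and edgeR; the table's identifiers are rat Ensembl genes. The labels name a VAHTS stranded kit and the methods a KAPA kit. The sources used here name no counter, strand setting or annotation release, so counts of overlapping genes are uncertain.

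Groups came from the sample labels. Counts were tested with edgeR 4.0.16 in R 4.3.3: TMM scaling, filterByExpr (minimum count 10, minimum total 15), which left out 7985 genes, and the quasi-likelihood test, with p-values adjusted by the Benjamini-Hochberg method over all genes tested. SE is the log2 fold change over the square root of F. Likeness used log2 CPM with a prior count of 2. Paralog ratios were tested by exact permutation. As alternatives, the test was replaced by DESeq2 1.42.0, limma-voom (limma 3.58.1) or edgeR's exact test, the scaling by RLE or upper quartile, and the filter by none or a stricter one (1 CPM in 3 libraries), replicate numbers were entered as a block, and single libraries were omitted. The pipeline was tested on simulated data.

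By rule, named genes are all members, up to 2 called genes per list and direction with the largest change, and the 5 genes most like Ep300; others were named after their values were seen, as said beside them. Members and lists were chosen with earlier results of these data known. List symbols were matched by symbol or by synonym in a RefSeq table (GRCr8), which gave 3 rows; Trrap, Kansl2, Cited4, Taf1 and Hdac1 were not analysed here. Single results for a few list genes are not reported here. Promoter windows were read in Python 3.11.15 from RefSeq. Further marker lists were leukocyte, fibroblast, endothelial and adrenal cortex.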

Additional observations from a re-analysis of the deposited data

How the results depend on the processing

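Of the alternatives, the filter, single libraries and the block moved the counts of calls most. Without a filter 2090 genes and 29 of the other acetylation genes were called. With 1 library omitted at a time the calls were 48 to 2860 for all genes, 1 to 2 for the acetyltransferases and 0 to 26 for the other acetylation genes, and the log2 fold change of Ep300 was 0.91 to 1.56, with its call lost without Ctrl 2, PCBP1-OE 2 or PCBP1-OE 3. Replicate numbers did not pair the samples: deviations of same-numbered libraries correlated at -0.0776, -0.0514 and -0.0428. With the replicate number as a block edgeR's quasi-likelihood test called 16 genes, 0 acetyltransferases and 0 other acetylation genes (2 and 32 at an unadjusted p under 0.05), Ep300 had a log2 fold change of 1.16 with a Benjamini-Hochberg adjusted p of 0.139, and Kat6a one of 0.0858. In the fit with this block, 2730 of all 12624 genes had an unadjusted p under 0.05. Over the alternatives the signs of 3 small changes turned. Kat7 was at 0.00072 with RLE and 0.019 with upper-quartile scaling, 7.99e-05 with no filter, 0.0023 with the stricter filter, 0.00069 with DESeq2 and -0.025 to 0.026 with a library left out. In the fits with a library left out Kat2b ran from -0.089 to 0.015 and Kat6b from -0.023 to 0.34. The other 7 acetyltransferase genes kept their sign under all 14 alternatives, and the log2 ratio of Ep300 to Crebbp differed by 0.77 to 1.28 with a library left out. Beyond the samples left out, the cause of these moves was not tested. Ep300 and Kat6b, with 42 to 166 counts a library, had the fewest counts and the largest SE of the members. The part of depth in this was not tested.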

Other observations

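Besides the chromaffin and glial markers, 4 further marker lists were read, and Pdgfra was their only gene above 10 CPM on average. Of 8 leukocyte markers 7 were in the table and summed to 8.26, 9.10 and 7.94 CPM in Ctrl and to 7.62, 7.14 and 7.91 CPM in PCBP1-OE, so the groups did not overlap, though Ctrl 3 and PCBP1-OE 3 nearly met, with Cd68 the most abundant (mean 3.21 CPM) and Ptprc at 0 to 3 counts. Of 6 fibroblast markers 4 summed to 225.0 to 230.4 CPM in Ctrl and to 200.1 to 212.2 CPM in PCBP1-OE, with no overlap and nearly all from Pdgfra (mean 213.0 CPM), while Dcn had 0 to 5 counts. Of 5 endothelial markers 4 summed to 4.74 to 6.64 CPM, led by Tek, with overlap, and of 5 adrenal cortex markers 4 summed to 2.04 to 3.67 CPM, led by Nr5a1, also with overlap. Genes of the mitochondrial chromosome held 8.42%, 8.24% and 7.99% of the counts in Ctrl 1, 2 and 3 and 7.53%, 7.91% and 8.21% in PCBP1-OE 1, 2 and 3, so the groups overlapped. Their part in the acetyltransferase changes was not tested.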
